A study of Mus musculus with 12 samples.

Results

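The insulin-like growth factor (IGF) axis was examined in primary cardiac fibroblasts of the mouse through 10 genes chosen by name: the ligand gene Igf1, the receptor genes Igf1r and Insr, the adaptor gene Irs1 and the binding protein genes Igfbp2, Igfbp3, Igfbp4, Igfbp5, Igfbp6 and Igfbp7. They are 10 of 35523 genes with a transcript in the deposited tables, and all 10 passed the low-count filter that kept 18028 genes. The cells were isolated from C57BL/6J mice, adults of both sexes, and were transfected with either a scramble siRNA or an siRNA to histone H1.0, the linker histone encoded by H1f0. Each was then treated with vehicle or with TGF-β at 10 ng/ml. The 4 groups (scramble vehicle, scramble TGF-β, siRNA vehicle and siRNA TGF-β) held 3 biological replicates each, numbered 1 to 3. All groups passed through low-serum medium before treatment. The growth medium of all groups contained insulin, which signals through Insr and, at high concentration, through Igf1r, so no group was free of a ligand of this axis during growth. A transfected primary culture is a mixed population; the labels name no clone and no sorting.

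IGF1 is a secreted growth factor that binds the IGF1 receptor, a tyrosine kinase closely related to the insulin receptor. The activated receptors phosphorylate adaptors such as IRS1, which recruit PI3-kinase and so switch on Akt and mTOR, and Akt holds FOXO transcription factors out of the nucleus. The IGF-binding proteins carry IGFs, hold them away from the receptor or release them after being cut by proteinases. IGFBP7 differs from the others in binding IGFs only weakly. In the heart, fibroblasts and macrophages are known sources of IGF1.

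Of the 10 genes, Igfbp3 and Igfbp4 had the largest changes. For that reason the 250 bases before the annotated start of both are shown, with Irs1, the member whose response to TGF-β differed most between siRNA cells and scramble cells relative to its error. The sequences are from RefSeq on build GRCm38.p6, whose table held an entry for 9 of the 10 members (none for Insr). Each reads 5′ to 3′ on the gene's own strand and ends at the base before the start. Capitals mark any match, on either strand, to 4 short motifs: CAGAC (the SMAD-binding motif), GGGCGG (the GC box), TATAAA (the TATA box) and TGTTTAC (the FOXO motif).
Igfbp3, chr11:7213924-7214173, minus strand: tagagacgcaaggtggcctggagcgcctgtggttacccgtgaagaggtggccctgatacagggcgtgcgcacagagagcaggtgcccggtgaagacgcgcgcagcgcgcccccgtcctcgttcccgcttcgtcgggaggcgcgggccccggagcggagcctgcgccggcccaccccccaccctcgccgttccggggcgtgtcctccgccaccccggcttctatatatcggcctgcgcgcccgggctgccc
Igfbp4, chr11:99040994-99041243, plus strand: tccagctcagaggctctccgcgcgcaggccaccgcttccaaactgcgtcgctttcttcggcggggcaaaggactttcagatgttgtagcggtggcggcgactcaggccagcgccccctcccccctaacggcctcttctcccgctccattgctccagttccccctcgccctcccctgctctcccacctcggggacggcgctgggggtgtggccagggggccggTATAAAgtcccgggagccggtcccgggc
Irs1, chr1:82291440-82291689, minus strand: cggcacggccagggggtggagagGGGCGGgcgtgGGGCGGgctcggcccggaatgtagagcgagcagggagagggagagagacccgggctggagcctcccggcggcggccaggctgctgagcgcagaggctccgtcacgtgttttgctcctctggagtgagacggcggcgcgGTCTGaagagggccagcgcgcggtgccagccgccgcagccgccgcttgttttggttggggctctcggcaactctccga
The Igfbp3 window held none of the 4 motifs and the Igfbp4 window held 1 TATA box. The Irs1 window held 2 GC boxes and 1 CAGAC, which is read there on the opposite strand. Among 32851 promoter windows of the same length, CAGAC occurred in 42.2%, GGGCGG in 32.7%, TATAAA in 12.4% and TGTTTAC in 3.17%. These matches describe the letters only.

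The totals ranged from 19.9 to 36.3 M reads per library, and the siRNA TGF-β libraries were the deepest, at 36.2 to 36.3 M. H1f0 fell in siRNA cells from a mean of 2744 to 889 normalized counts in vehicle (adjusted p = 0.000195) and from 2866 to 746 in TGF-β (adjusted p = 5.81e-05), so the target of the siRNA moved as labelled. Acta2 and Postn, standard genes of fibroblast activation, rose with TGF-β in scramble cells by 1.75 and 2.22 on the log2 scale. They also rose in siRNA cells, by 2.49 (adjusted p = 2.91e-06) and 1.885 (adjusted p = 5.27e-05), but from and to lower levels. With the siRNA Acta2 changed by -2.54 in vehicle (adjusted p = 5.22e-07) and by -1.80 in TGF-β (adjusted p = 3.56e-06). Its mean of 30104 normalized counts in siRNA TGF-β was near the 31146 of scramble vehicle. Postn changed with the siRNA by -0.57 in vehicle (adjusted p = 0.027, not passing) and by -0.90 in TGF-β (adjusted p = 0.00224). The 10 fibroblast markers summed to between 14089 and 20908 TPM (abundance scaled by transcript length and by library) and the 12 macrophage markers to between 789 and 1885 TPM, so macrophage transcripts were present in every library. Both siRNA libraries of replicate 2 stood apart in the 6 epicardial and mesothelial markers, with 28.8 and 34.3 summed TPM against 10.9 to 17.1 in the other libraries; calls of named genes that are lost without them are given where they occur. In such bulk samples, fewer cells of a type and less RNA per cell cannot be told apart.

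Levels of different genes were compared as TPM, which is per length. In untreated scramble cells, Igfbp7 had the highest mean at 1624 TPM ± 268 (SD, n = 3), followed by Igfbp4 at 1044 ± 433, and these neighbours overlapped. Igfbp2 followed at 217 ± 102 TPM, Igf1 at 160 ± 8.87 and Igfbp3 at 116 ± 8.29. The receptor Igf1r stood at 58.2 ± 7.15 TPM and the adaptor Irs1 at 47.3 ± 3.06. Igfbp6, Insr and Igfbp5 were lowest at 20.2 ± 5.33, 19.5 ± 2.09 and 15.1 ± 4.87 TPM, and their libraries overlapped. Igfbp2 and Igf1 also overlapped, whereas each other neighbour in this order stood apart in every library.

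The order changed between groups mainly through Igfbp4, Igfbp3 and Igf1. Igfbp7 kept the highest mean in all 4 groups, at 1467 ± 228 TPM in scramble TGF-β, 1478 ± 196 in siRNA vehicle and 1662 ± 241 in siRNA TGF-β. Igfbp4 ranked second in both vehicle groups, but behind Igfbp7, Igf1 and Igfbp2 in both TGF-β groups, where its mean was 201 ± 64.9 TPM in scramble cells and 105 ± 42.6 in siRNA cells. Its libraries overlapped those of Igfbp2 in scramble TGF-β and in siRNA vehicle. Igf1 was second in scramble TGF-β, at 341 ± 33.7 TPM, and overlapped Igfbp2 there at 285 ± 95.6. In siRNA TGF-β, Igfbp2 at 367 ± 110 TPM came before Igf1 at 293 ± 15.8, and these also overlapped. Igfbp3 stood above Igf1r in untreated scramble cells and far below it in siRNA TGF-β, where it stood at 7.77 ± 4.61 TPM and overlapped Igfbp6 and Igfbp5.

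The summed TPM of the 6 binding protein genes was 3343, 3057 and 2712 in the scramble vehicle libraries. It was 2079, 1877 and 2043 in scramble TGF-β, 2188, 2213 and 2195 in siRNA vehicle, and 2136, 2094 and 2254 in siRNA TGF-β. Every untreated scramble library was thus above every other library, and the remaining 3 groups lay within one band. Igfbp4 made up 33.6% ± 11.5 of the sum in scramble vehicle and 10.1% ± 3.18 in scramble TGF-β. Its share was 19.9% ± 6.66 in siRNA vehicle and 4.92% ± 2.14 in siRNA TGF-β. Igfbp7 took the largest part, from 54.3% ± 13.7 in scramble vehicle to 76.7% ± 8.31 in siRNA TGF-β. Igfbp3 went from 3.83% ± 0.127 to 0.364% ± 0.227 between the same groups. These shares are descriptions and were not tested.

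**Figure D1:**
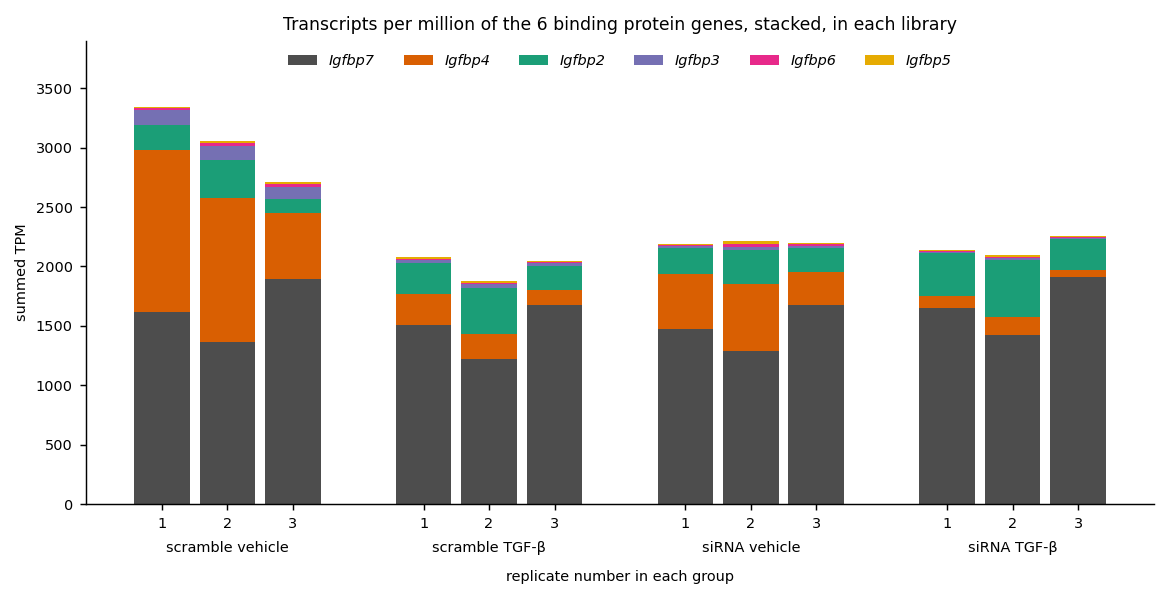
Stacked bars of the TPM of the 6 binding protein genes (y axis, summed TPM) in each of the 12 libraries, grouped by treatment with the replicate number under each bar. The 3 scramble vehicle bars reach 2712 to 3343 and all others lie between 1877 and 2254; the Igfbp4 segment is the one that shrinks most.

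With TGF-β in scramble cells, 5 of the 10 members passed the test, an edgeR quasi-likelihood F test over all genes with Benjamini-Hochberg adjustment and a threshold of 0.01: Igf1 rose, and Igf1r, Insr, Igfbp3 and Igfbp4 fell. In this comparison 18.4% of all genes tested passed. In siRNA cells, 4 of 10 passed (Igf1 and Irs1 higher, Insr and Igfbp4 lower), against 15.7% of all genes. The median log2 change of the members was -0.373 in scramble cells and -0.139 in siRNA cells, beside -0.0104 and -0.00867 over all genes. The libraries did not overlap between vehicle and TGF-β for 6 members in scramble cells and 6 in siRNA cells, where 45.7% and 42.6% of all genes did not overlap.

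With the siRNA in vehicle, 3 of 10 passed (Insr higher, Irs1 and Igfbp3 lower), against 24.7% of all genes tested. In TGF-β, 4 of 10 passed (Igf1r and Insr higher, Irs1 and Igfbp3 lower), against 24.3%. The median log2 change was -0.169 and 0.00675, beside 0.000148 and 0.0375 over all genes. Between siRNA TGF-β and scramble vehicle, 5 of 10 passed (Igf1 and Insr higher, Irs1, Igfbp3 and Igfbp4 lower), against 34.4% of all genes, with a median of -0.225 beside -0.000541. The libraries of 4, 4 and 5 members did not overlap in these comparisons, where 48.0%, 46.5% and 54.5% of all genes did not. The comparisons share groups, so their counts are not independent.

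The difference between the TGF-β changes of siRNA cells and scramble cells, the interaction of the fit, passed for none of the 10 members by edgeR and for 8 of 18028 genes in all, or 0.0444%. At an unadjusted p under 0.05, 3 members differed (Igf1r, Irs1 and Igfbp3), beside 11.9% of all genes. DESeq2 called 1 of them, Irs1, and 239 genes in all, or 1.33%. A call in scramble cells and none in siRNA cells is therefore not shown to be a difference between them.

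Samples of the same replicate number tended to move together, though not in every pair of groups, as set out in the processing. A fit with the replicate number as a block was therefore run beside the one above. It called 6 members for TGF-β in scramble cells and 8 in siRNA cells. For the siRNA it called 4 in vehicle and 6 in TGF-β, and it called 7 between siRNA TGF-β and scramble vehicle. The block raised the calls over all genes as well, to 28.4% and 26.8% for TGF-β, to 33.6% in both siRNA comparisons and to 42.5% between siRNA TGF-β and scramble vehicle. The blocked value is given beside each member whose call it changed.

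**Figure D2:**
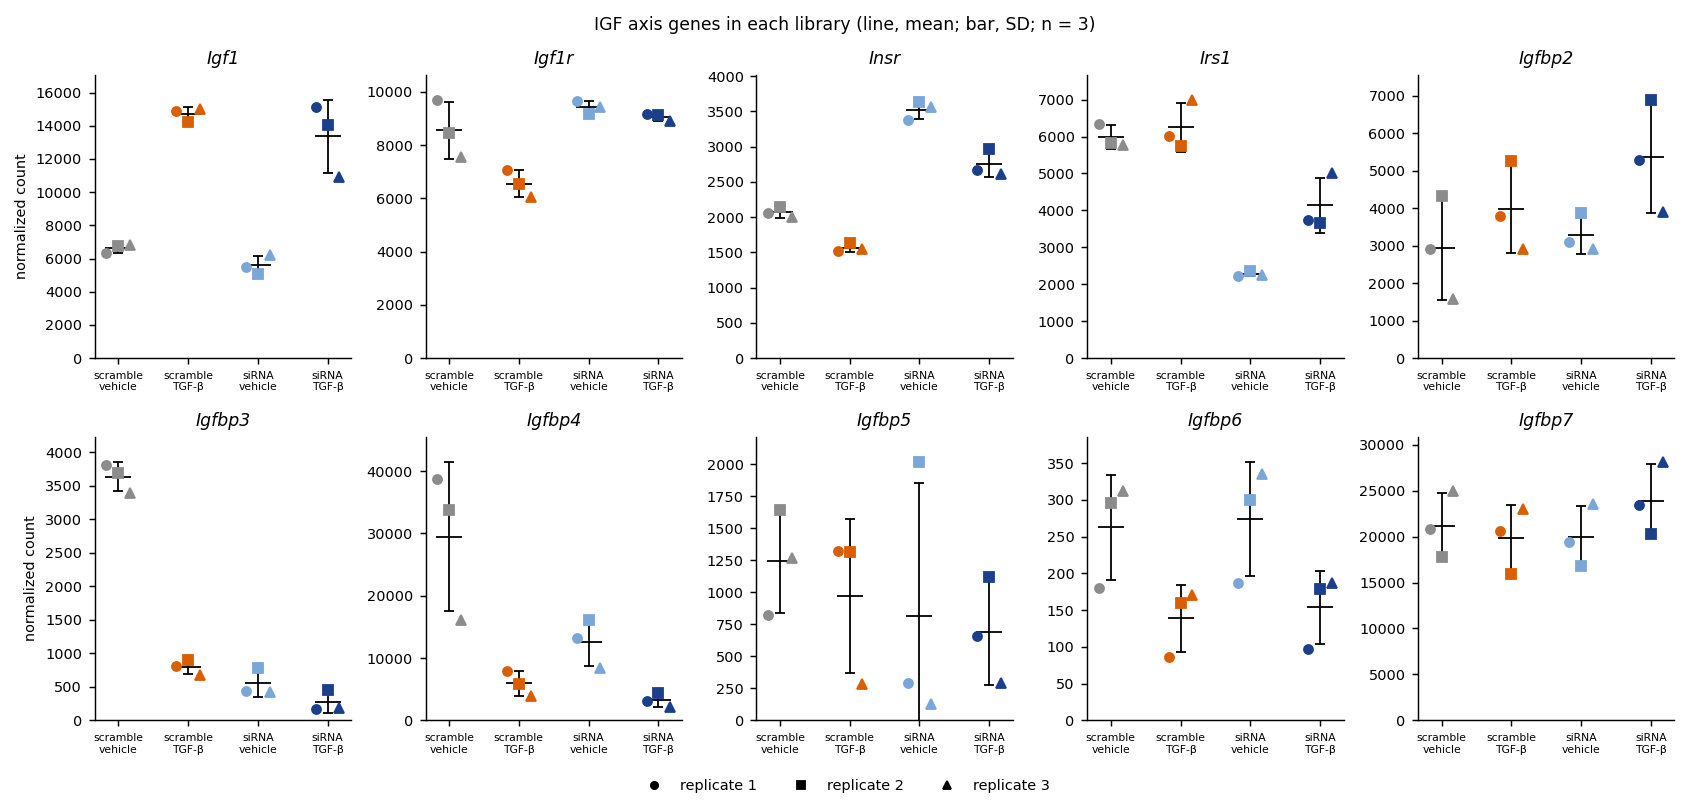
Normalized counts (y axis, linear and from 0, a separate scale for each gene) of the 10 members in each library, with the 4 groups along the x axis; symbols give the replicate number, the horizontal line the mean and the bar the SD (n = 3). Igf1 is higher in all TGF-β libraries, Igfbp3 and Igfbp4 are highest in untreated scramble cells, and the Igfbp5 libraries of siRNA vehicle spread from 130 to 2015, so that the bar there is cut off at 0.

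Igf1, the ligand gene, lies on chr10:87858265-87937042 (GRCm38, plus strand). Its normalized counts, which are comparable between libraries of one gene, were 6323, 6778 and 6843 in scramble vehicle and 14869, 14221 and 14989 in scramble TGF-β. They were 5506, 5075 and 6192 in siRNA vehicle and 15105, 14050 and 10913 in siRNA TGF-β. Every TGF-β library was above every vehicle library, and the lowest of them was replicate 3 of siRNA TGF-β. The log2 change with TGF-β was 1.14 (SE 0.113, adjusted p = 7.63e-05), or 2.21-fold, in scramble cells and 1.26 (SE 0.114, adjusted p = 3.4e-05), or 2.39-fold, in siRNA cells. These rises differed by 0.11 on the log2 scale, with a 95% interval from -0.236 to 0.460. The siRNA difference did not pass in vehicle (log2 change -0.25, adjusted p = 0.108) or in TGF-β (-0.14, adjusted p = 0.385), and its 95% interval ran from -0.496 to -0.00305 in vehicle and from -0.383 to 0.108 in TGF-β.

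Igf1 has 8 quantified transcripts, and their shares of the gene's reads shifted little beside the change in total. The protein-coding transcript Igf1-202 held 80.5% ± 2.28 of the gene's reads in scramble vehicle and 80.0% ± 3.64 in scramble TGF-β. It held 82.5% ± 1.06 in siRNA vehicle and 81.3% ± 3.74 in siRNA TGF-β. Igf1-203 held from 8.17% to 11.2% and Igf1-206 from 2.89% to 5.24% as group means. In the comparisons of the design these shares overlapped, with a pair of exceptions that were not tested. Igf1-206 was higher in all siRNA TGF-β libraries (3.69% to 7.14%) than in all scramble TGF-β libraries (3.29% to 3.49%). Igf1-203 was higher in all siRNA TGF-β libraries (8.71% to 10.5%) than in all siRNA vehicle libraries (7.38% to 8.58%). Read shares give long transcripts more weight, and TPM does not. As TPM, Igf1-202 had means of 55.1 and 117 in scramble vehicle and TGF-β, and 46.1 and 103 in siRNA vehicle and TGF-β. Igf1-206 had 29.6, 74.3, 34.8 and 94.9 in the same order, so per length it was a larger part, most of all in siRNA cells. The TPM mix was not tested.

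Macrophages are a source of IGF1, so their markers were set beside Igf1. The summed TPM of the 12 macrophage markers was 1687 to 1885 in scramble vehicle and 1240 to 1314 in scramble TGF-β. It was 1475 to 1569 in siRNA vehicle and 789 to 1180 in siRNA TGF-β. The sum was thus lower in all TGF-β libraries than in the matching vehicle libraries, while Igf1 was higher. The largest part of the sum was Lyz2, at a mean of 980 TPM in scramble vehicle and 711 in scramble TGF-β. In siRNA cells Lyz2 stood at 708 TPM in vehicle and 459 in TGF-β. Its fall with TGF-β did not pass in scramble cells (-0.41, adjusted p = 0.0305) or siRNA cells (-0.53, adjusted p = 0.0103). Of the 12 markers, 0 passed as higher and 3 as lower with TGF-β in scramble cells, beside 10.5% and 7.94% of all genes. In siRNA cells 0 and 5 passed, beside 9.14% and 6.6% of all genes. No macrophage marker was at 0 in any library. The median log2 change of the 12 with TGF-β was -0.359 in scramble cells and -0.543 in siRNA cells. Mrc1 had the largest fall, by 2.10 and 2.95, and Cd68 fell by 0.83 and 0.96. Adgre1 changed by -0.04 and -0.40 and Csf1r by 0.18 and 0.16, and neither passed. Which cells held the Igf1 transcripts was not measured.

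**Figure D3:**
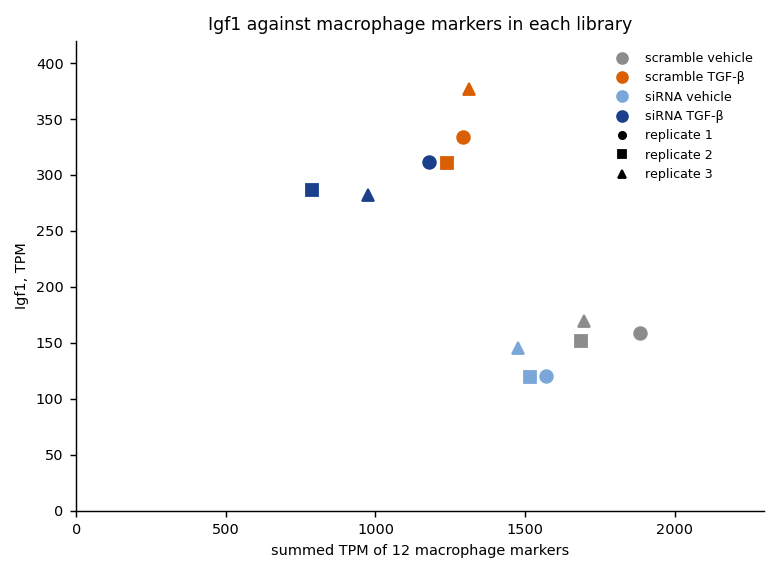
Igf1 (y axis, TPM) against the summed TPM of 12 macrophage markers (x axis) in each of the 12 libraries, coloured by group with the symbol giving the replicate number. The 6 TGF-β libraries lie at 282 to 377 TPM of Igf1 and a marker sum of 789 to 1314, and the 6 vehicle libraries at 119 to 169 TPM and 1475 to 1885.

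Igf1r, the receptor for IGF1, lies on chr7:67952827-68233668 (plus strand). It had 9679, 8465 and 7544 normalized counts in scramble vehicle, and 7051, 6534 and 6059 in scramble TGF-β. The siRNA libraries held 9664, 9181 and 9436 in vehicle and 9181, 9115 and 8902 in TGF-β. Scramble TGF-β was the group that stood below the rest, and the other 3 groups overlapped. The log2 change with TGF-β was -0.39 (SE 0.0884, adjusted p = 0.00675) in scramble cells and -0.06 (SE 0.0881, adjusted p = 0.693) in siRNA cells. In TGF-β, siRNA cells had more Igf1r than scramble cells by 0.47 (SE 0.0884, adjusted p = 0.0016), and in vehicle the difference of 0.14 did not pass (adjusted p = 0.256). The TGF-β changes themselves differed by 0.33 (95% interval 0.0568 to 0.605, adjusted p = 0.318). The fall in scramble cells lost its call without replicate 1 or 2 of scramble vehicle (adjusted p = 0.0214 and 0.0207), without replicate 2 or 3 of scramble TGF-β (0.0233 and 0.0318) and without replicate 1 or 2 of siRNA TGF-β (0.0111 and 0.0107). It was also lost with effective transcript length in the fit (adjusted p = 0.0133) and without both siRNA libraries of replicate 2 (adjusted p = 0.0145).

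Insr, the insulin receptor gene, lies on chr8:3122061-3279617 (minus strand) and varied little between replicates, with the highest library of a group at most 1.13 times the lowest. Its normalized counts were 2056, 2149 and 1996 in scramble vehicle and 1514, 1640 and 1549 in scramble TGF-β. They were 3381, 3640 and 3556 in siRNA vehicle and 2674, 2963 and 2614 in siRNA TGF-β. No pair of the 4 groups overlapped: TGF-β libraries were lower and siRNA libraries higher throughout. The siRNA raised Insr by 0.77 on the log2 scale in vehicle (SE 0.0641, adjusted p = 7.49e-06) and by 0.81 in TGF-β (SE 0.0644, adjusted p = 5.17e-06). With TGF-β it fell by 0.40 in scramble cells (SE 0.0644, adjusted p = 0.000971) and by 0.36 in siRNA cells (SE 0.0635, adjusted p = 0.00187). The TGF-β changes differed by 0.04 (95% interval -0.158 to 0.239). With transcript length in the fit, the siRNA calls held and both TGF-β calls were lost (adjusted p = 0.0319 and 0.0455), as was the rise of 0.41 between siRNA TGF-β and scramble vehicle (adjusted p = 0.000292 without length and 0.0855 with length). Without replicate 2 of siRNA vehicle the fall in siRNA cells was at the threshold (adjusted p = 0.0108).

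Irs1 encodes an adaptor that docks PI3-kinase at the activated receptors, and lies on chr1:82233101-82291416 (minus strand), with 1 quantified transcript. Its normalized counts were 6348, 5834 and 5771 in scramble vehicle and 6016, 5738 and 6981 in scramble TGF-β. They were 2230, 2363 and 2254 in siRNA vehicle and 3742, 3669 and 5003 in siRNA TGF-β. The scramble groups overlapped each other, all siRNA libraries were below all scramble libraries, and within siRNA cells every TGF-β library was above every vehicle library. With the siRNA Irs1 fell by 1.39 on the log2 scale in vehicle (SE 0.118, adjusted p = 8.21e-06), to 0.381 of the scramble level, and fell by 0.59 in TGF-β (SE 0.115, adjusted p = 0.00196). With TGF-β it rose by 0.86 in siRNA cells (SE 0.116, adjusted p = 0.000379), whereas the change in scramble cells was 0.06 (SE 0.115, adjusted p = 0.733).

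The difference between these TGF-β changes of Irs1 was 0.80 (SE 0.163, 95% interval 0.439 to 1.16), with an unadjusted p = 0.000461 and an adjusted p = 0.066 by edgeR. The adjusted p was 0.0153 with the replicate block and 0.0025 by DESeq2, which passes the threshold. Of the adaptor's neighbours in function, Irs2 had log2 changes with TGF-β that differed by 0.72 without passing (adjusted p = 0.493). Between siRNA TGF-β and scramble vehicle the change of Irs1 was -0.53 (SE 0.115, adjusted p = 0.00269). The siRNA call in TGF-β was lost without replicate 1 of siRNA TGF-β (adjusted p = 0.011) and without both siRNA libraries of replicate 2 (adjusted p = 0.0167). The call against scramble vehicle was lost without replicate 1 of scramble vehicle (adjusted p = 0.0149), without replicate 1 or 2 of siRNA TGF-β (0.014 and 0.0127) and without both siRNA libraries of replicate 2 (0.0212).

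**Figure D4:**
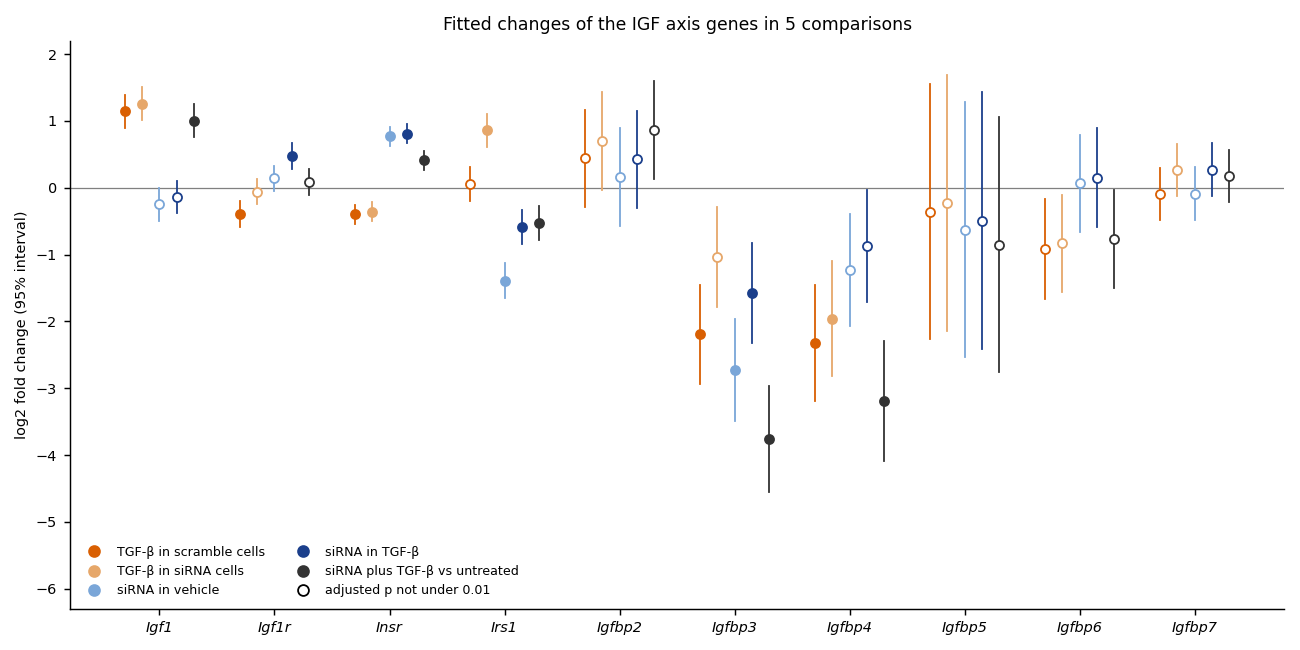
Fitted log2 fold changes (y axis) with 95% intervals for the 10 members (x axis) in 5 comparisons, given by colour; filled circles have an adjusted p under 0.01 in edgeR and open circles do not. Insr lies above 0 in both siRNA comparisons and below 0 in both TGF-β comparisons, while Igfbp3 and Igfbp4 lie below 0 in all 5, with the lowest points at -3.77 and -3.19 between siRNA TGF-β and untreated cells.

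Igfbp3 encodes the main IGF carrier of blood, which cells also secrete locally, and lies on chr11:7206086-7213923 (minus strand). It had 3814, 3693 and 3398 normalized counts in scramble vehicle and 807, 906 and 682 in scramble TGF-β. In siRNA cells it had 435, 785 and 429 in vehicle and 170, 447 and 185 in TGF-β. Untreated scramble cells stood far above the other 9 libraries, and replicate 2 was the highest in both siRNA groups and in scramble TGF-β. With TGF-β Igfbp3 fell by 2.19 on the log2 scale in scramble cells (SE 0.338, adjusted p = 0.000756), a 4.56-fold reduction. With the siRNA it fell by 2.73 in vehicle (SE 0.345, adjusted p = 0.000116), a 6.64-fold reduction, and fell by 1.58 in TGF-β (SE 0.342, adjusted p = 0.00384). The last of these calls was lost without replicate 1 or 2 of scramble TGF-β (adjusted p = 0.0122 and 0.0153) and without replicate 1 or 3 of siRNA TGF-β (0.0166 and 0.015). Between siRNA TGF-β and scramble vehicle the change was -3.77 (SE 0.362, adjusted p = 1.3e-05), or 13.6-fold, the largest of any member.

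In siRNA cells the TGF-β change of Igfbp3 was -1.03 (SE 0.341) and did not pass (adjusted p = 0.0414). It passed with the replicate block (-1.07, adjusted p = 0.00325), by DESeq2 (adjusted p = 0.00715), without replicate 2 of siRNA TGF-β alone (adjusted p = 0.00146) and without both siRNA libraries of replicate 2 (-1.27, adjusted p = 0.000757). Those are the libraries with the high epicardial and mesothelial markers, whose part in the Igfbp3 values was not tested. All 3 same-numbered pairs fell, by -1.36, -0.812 and -1.22. The TGF-β changes of siRNA cells and scramble cells differed by 1.15 (95% interval 0.120 to 2.19, adjusted p = 0.361).

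Igfbp4 encodes an inhibitory binding protein that the proteinase PAPP-A cuts to free IGF, and lies on chr11:99041244-99054392 (plus strand). Its normalized counts were 38687, 33741 and 16050 in scramble vehicle and 7947, 5857 and 3946 in scramble TGF-β. They were 13250, 16146 and 8401 in siRNA vehicle and 3137, 4459 and 2121 in siRNA TGF-β. Replicate 3 was the lowest in all 4 groups, by a factor of 1.92 to 2.41 from the highest library, and yet every TGF-β library was below every vehicle library with the same siRNA. With TGF-β Igfbp4 fell by 2.32 on the log2 scale in scramble cells (SE 0.396, adjusted p = 0.00133), or 4.99-fold, and by 1.96 in siRNA cells (SE 0.391, adjusted p = 0.0036), or 3.89-fold. The second call was lost without replicate 1 or 2 of siRNA vehicle (adjusted p = 0.0125 and 0.0154), without replicate 1 or 3 of siRNA TGF-β (0.0153 and 0.0156) and without both siRNA libraries of replicate 2 (-2.03, adjusted p = 0.0154).

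The siRNA difference of Igfbp4 depended on the fit. By edgeR without the block it was -1.23 in vehicle (SE 0.382, adjusted p = 0.0261) and -0.87 in TGF-β (SE 0.381, adjusted p = 0.102), and the libraries overlapped. Within same-numbered pairs it was lower in 3 of 3 in vehicle, by -1.55, -1.06 and -0.934, and in 3 of 3 in TGF-β, by -1.34, -0.394 and -0.896. With the replicate block both differences passed, at -1.19 (adjusted p = 0.000101) and -0.88 (adjusted p = 0.000845). The vehicle difference also passed by DESeq2 without a block (-1.25, adjusted p = 0.00185) and without replicate 3 of scramble vehicle (adjusted p = 0.00716), and the difference in TGF-β did not pass by DESeq2 (adjusted p = 0.0315). Between siRNA TGF-β and scramble vehicle the change was -3.19 (SE 0.410, adjusted p = 8.24e-05), or 9.11-fold lower. The protein-coding transcript Igfbp4-201 held 84.5% ± 0.697 of the reads in scramble vehicle, 84.5% ± 0.681 in scramble TGF-β, 84.2% ± 0.310 in siRNA vehicle and 84.5% ± 0.818 in siRNA TGF-β.

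Igfbp2, whose product also binds integrins, lies on chr1:72824503-72852474 (plus strand). Its neighbour Igfbp5 lies on the minus strand at chr1:72857932-72874884, so that their 3′ ends face each other across 5457 bases. Igfbp2 had 2910, 4334 and 1567 normalized counts in scramble vehicle and 3799, 5256 and 2907 in scramble TGF-β. It had 3087, 3863 and 2903 in siRNA vehicle and 5282, 6873 and 3891 in siRNA TGF-β. Replicate 2 was the highest and replicate 3 the lowest in all 4 groups, and TGF-β was above vehicle in each same-numbered pair. Without the block no comparison of Igfbp2 passed. With the block it was higher with TGF-β in siRNA cells (0.66, adjusted p = 0.00356) and in siRNA TGF-β against scramble vehicle (0.92, adjusted p = 0.000238), and the value in scramble cells was 0.49 (adjusted p = 0.0186).

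Igfbp2 was read mainly through 2 protein-coding transcripts with separate starts. Igfbp2-201 held 58.3% ± 7.28 and Igfbp2-202 held 41.6% ± 7.29 of the reads in scramble vehicle. In siRNA TGF-β the shares were 53.2% ± 2.08 and 46.7% ± 2.07. The difference in the mean shares was smaller than the spread between the scramble vehicle replicates.

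Igfbp5, whose product is held in the extracellular matrix, was the least repeatable member. Its normalized counts were 827, 1643 and 1267 in scramble vehicle and 1321, 1314 and 280 in scramble TGF-β. They were 294, 2015 and 130 in siRNA vehicle and 659, 1123 and 290 in siRNA TGF-β. The highest library of siRNA vehicle held 15.5 times the lowest. Replicate 2 was the highest in both siRNA groups and in scramble vehicle, and was close to the highest in scramble TGF-β. All groups overlapped, no comparison passed with or without the block, and the 95% interval of the TGF-β change ran from -2.27 to 1.55 in scramble cells. The same-numbered pairs also went in different directions for TGF-β, with 0.675, -0.322 and -2.18 in scramble cells and 1.17, -0.844 and 1.16 in siRNA cells.

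Igfbp6, which prefers IGF2 over IGF1 as a ligand, lies on chr15:102144362-102149511 (plus strand). It had 181, 295 and 312 normalized counts in scramble vehicle and 86.2, 159 and 171 in scramble TGF-β. In siRNA cells it had 187, 300 and 335 in vehicle and 96.6, 179 and 186 in TGF-β. Replicate 1 was the lowest and replicate 3 the highest in each group, and TGF-β libraries were below vehicle libraries in scramble and in siRNA cells. Without the block the TGF-β change did not pass at -0.92 (SE 0.340, adjusted p = 0.0603) in scramble cells or at -0.83 (SE 0.331, adjusted p = 0.0836) in siRNA cells. With the block it passed at -0.94 (SE 0.0991, adjusted p = 3.35e-05) and -0.84 (SE 0.0948, adjusted p = 4.8e-05), and the change between siRNA TGF-β and scramble vehicle passed at -0.78 (adjusted p = 3.61e-05). The within-pair values were close together, at -1.07, -0.891 and -0.868 in scramble cells and -0.956, -0.743 and -0.845 in siRNA cells. The siRNA difference was 0.07 in vehicle and 0.15 in TGF-β and passed in neither fit.

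Igfbp7, the weak IGF binder, lies on chr5:77349240-77408041 (minus strand). Its normalized counts were 20791, 17776 and 24956 in scramble vehicle and 20651, 15977 and 22954 in scramble TGF-β. They were 19445, 16806 and 23520 in siRNA vehicle and 23493, 20232 and 28072 in siRNA TGF-β. Replicate 3 was the highest and replicate 2 the lowest in all 4 groups, and no comparison passed without the block. With the block Igfbp7 was higher in siRNA TGF-β than in siRNA vehicle by 0.27 (SE 0.0543, adjusted p = 0.00259) and than in scramble TGF-β by 0.27 (SE 0.0543, adjusted p = 0.0018). Within numbered pairs TGF-β gave -0.00973, -0.154 and -0.121 in scramble cells and 0.273, 0.268 and 0.255 in siRNA cells, so the pairs went down in the first and up in the second. The difference between these changes was 0.36, with an adjusted p = 0.639 without the block and 0.0335 with it, and passed in neither.

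**Figure D5:**
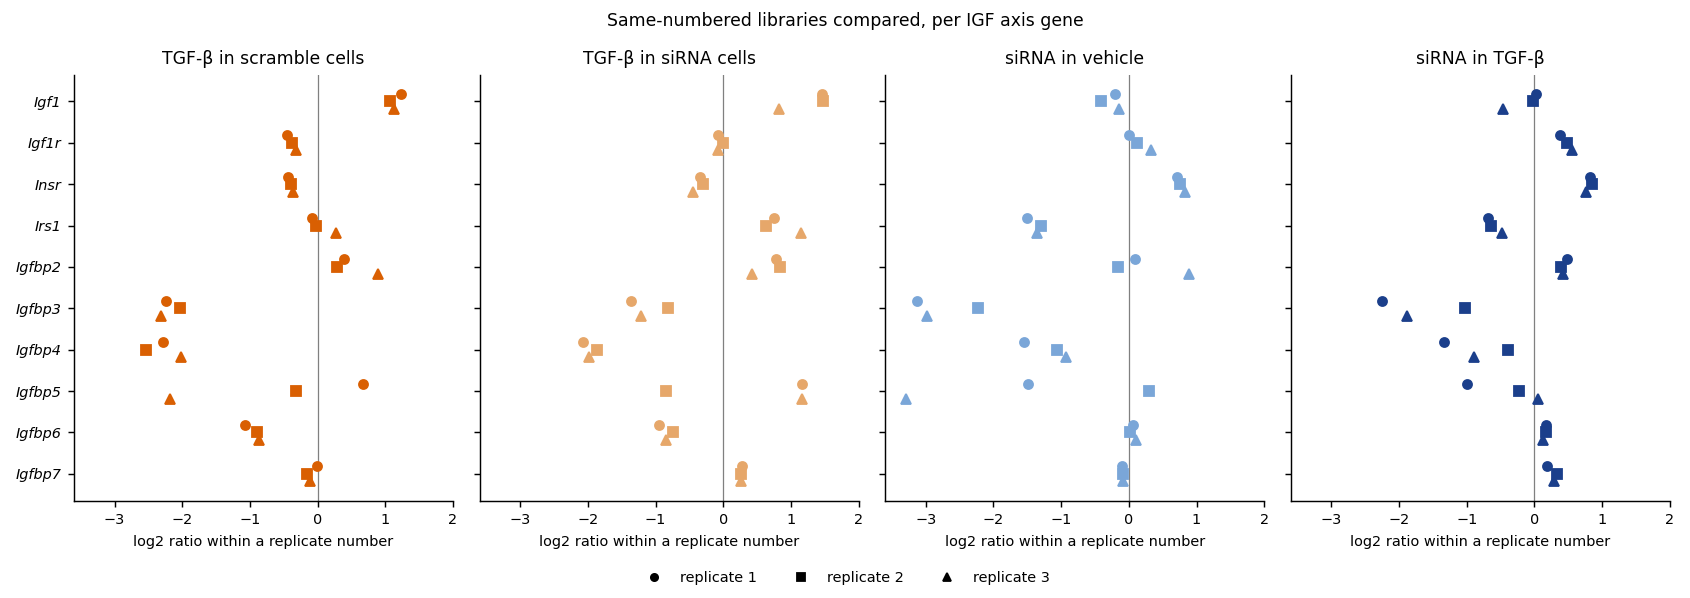
Log2 ratios of normalized counts between same-numbered libraries (x axis) for the 10 members (y axis) in 4 comparisons, a panel each; symbols give the replicate number. Within each TGF-β panel the 3 symbols of a member lie on one side of 0, except for Igfbp5 and, in scramble cells, Irs1. Those of Igfbp7 lie at 0.255 to 0.273 for TGF-β in siRNA cells, and those of Igfbp5 scatter on either side.

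The genes whose course over the 12 libraries came closest to that of each called member were ranked among 11458 genes with a mean normalized count of at least 100, by the root mean square difference of their centred log2 values. For Igf1 the closest was Col12a1, a fibril-associated collagen gene, at 0.127, against a spread of 0.619 of Igf1 itself. For Insr it was Gabpb2 at 0.0679 (own spread 0.441), and for Igf1r it was Pfdn5 at 0.0785 (own spread 0.224). Irs1 was closest to Zfp57 at 0.135, followed by Sept6 and then Loxl1, which encodes a collagen and elastin cross-linking enzyme, at 0.178 (own spread 0.594). Igfbp3 was closest to Adhfe1 at 0.378, followed by Smoc2 and Fgl2 (own spread 1.47). Igfbp4 was closest to Notch3, which encodes a Notch receptor of vascular mural cells, at 0.264, followed by Klf15 at 0.284 and Smad9 at 0.286 (own spread 1.27). Between members, Igfbp3 and Igfbp4 differed by 0.777. The libraries are shared by every gene compared, and nearness in this measure is a description.

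Igfbp4 thus had a mural cell gene as its closest match, although Klf15 and Smad9 were nearly as close. The 7 pericyte and smooth muscle markers, a list that includes Notch3 itself, are given beside Igfbp4. Their summed TPM was 194 to 296 in scramble vehicle, 242 to 343 in scramble TGF-β, 89.2 to 120 in siRNA vehicle and 131 to 176 in siRNA TGF-β. Most of the sum was Pdgfrb, at a mean of 209 TPM in scramble vehicle, and the scramble groups overlapped. With TGF-β the markers went different ways: Notch3 changed by -2.09 in scramble cells (adjusted p = 0.0013) and Cspg4 by 1.87 (adjusted p = 0.00653), and in siRNA cells Cspg4 (2.56, adjusted p = 0.00178) and Pdgfrb (0.72, adjusted p = 0.0022) passed as higher. With the siRNA only Pdgfrb of the 7 passed, beside 24.7% of all genes in vehicle and 24.3% in TGF-β. Pdgfrb changed by -1.22 in vehicle (adjusted p = 4.25e-05) and by -0.81 in TGF-β (adjusted p = 0.000612). The part of such cells in the Igfbp4 values was not tested. The 7 cardiomyocyte markers summed to 131 to 197 TPM in scramble cells and 14.2 to 24.2 in siRNA cells, but most of it was Tnnt2, at a mean of 182 TPM in scramble vehicle and 10.5 in siRNA TGF-β. With the siRNA, 2 of the 7, Tnnt2 and Ryr2, passed as lower in vehicle and in TGF-β, beside 11.2% and 11.3% of all genes. Tnni3 had log2 changes of 0.22 and 0.53 without passing.

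The remaining genes of the pathway were read from lists. As a background to their counts, 10.5% of all genes passed as higher and 7.94% as lower with TGF-β in scramble cells; in siRNA cells it was 9.14% and 6.6%. For the siRNA the shares were 13.4% and 11.2% in vehicle and 13% and 11.3% in TGF-β. With the replicate block the same 4 pairs of shares were 15.4% and 13%, 14.2% and 12.6%, 17.4% and 16.2%, and 17.6% and 16%, and blocked counts are to be read against these. Of 9 other ligand, receptor and binding protein genes, 6 had enough counts to be tested, and Igfbp1, Ins1 and Ins2 did not. With TGF-β, 0 passed in scramble and in siRNA cells by edgeR and by DESeq2, where 1 and 2 members had an unadjusted p under 0.05, beside 41.9% and 39.1% of all genes. The block called Kazald1 in scramble cells (-0.97, adjusted p = 0.00705). Igf2, the second IGF ligand, had few counts: 263, 360 and 127 in scramble vehicle, 245, 209 and 199 in scramble TGF-β, 115, 131 and 42.3 in siRNA vehicle and 65.5, 89.1 and 42.9 in siRNA TGF-β. It fell with the siRNA in TGF-β by 1.72 on the log2 scale (adjusted p = 0.00994), and by 1.92 between siRNA TGF-β and scramble vehicle (adjusted p = 0.00388). It also passed as lower with the siRNA in vehicle with the block (-1.40, adjusted p = 0.000886) and by DESeq2 (adjusted p = 0.00427). Igf2r, which clears IGF2 from the cell surface, fell with the siRNA in vehicle by 0.41 (adjusted p = 0.00918). Of the leave-one-library fits, 9 of 12 lost the Igf2 call in TGF-β (highest adjusted p = 0.0364, without replicate 3 of siRNA TGF-β), 4 of 12 the Igf2 call against scramble vehicle (0.0189, without replicate 2 of scramble vehicle) and 9 of 12 the Igf2r call (0.0438, without replicate 1 of siRNA vehicle). With transcript length in the fit all 3 calls were lost (adjusted p = 0.0442, 0.0163 and 0.0114), and without both siRNA libraries of replicate 2 the Igf2 call in TGF-β (0.0141) and the Igf2r call (0.0353) were.

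The next list held genes of the proteinases that cut the binding proteins and of the inhibitors of those proteinases. Of 8 tested, 1 passed as higher and 3 as lower with the siRNA in vehicle, and 1 and 2 in TGF-β; with TGF-β, 0 passed in scramble and in siRNA cells, where 1 and 1 members had an unadjusted p under 0.05, beside the same 41.9% and 39.1% of all genes. DESeq2 called 1 and 0 there, beside 25% and 23.4% of all genes. With TGF-β in scramble cells the block called Stc1 (-1.87, adjusted p = 0.000317). With the block the siRNA counts were 1 and 6 in vehicle and 1 and 4 in TGF-β. Among those added was Pappa, the PAPP-A gene, at -1.48 in vehicle (adjusted p = 6.16e-05), which like Igfbp4 was lowest in replicate 3 of all 4 groups. Their median log2 change with the siRNA was -1.12 in vehicle and -0.811 in TGF-β, beside 0.000148 and 0.0375 over all genes. Stc2, whose product inhibits PAPP-A, fell by 1.89 in vehicle (adjusted p = 3.47e-05) and by 1.59 in TGF-β (adjusted p = 9.08e-05), from 1572, 1598 and 1424 normalized counts in scramble vehicle to 344, 422 and 472 in siRNA vehicle. Stc1, its relative, went from 256, 325 and 171 in scramble vehicle to 35.1, 58.1 and 20.3 in siRNA TGF-β, where it fell by 2.73 (adjusted p = 0.00152). Htra1, a secreted serine proteinase, fell by 0.83 (adjusted p = 0.00826) and 1.04 (adjusted p = 0.00227), and the first of these calls was lost without both siRNA libraries of replicate 2 (adjusted p = 0.0343), as was the second (adjusted p = 0.018). Adam9, a membrane metalloproteinase, rose by 0.80 (adjusted p = 0.000462) and 0.88 (adjusted p = 0.000242). Pappa2 had 51.4, 132 and 70.3 normalized counts in scramble vehicle and 3.39, 29.7 and 7.43 in siRNA vehicle, where it fell by 2.69 (adjusted p = 0.00874), a call that was lost with transcript length in the fit (adjusted p = 0.174). Leaving out 1 library cost the Htra1 call in 7 of 12 fits in vehicle (highest adjusted p = 0.0394, without replicate 1 of scramble vehicle) and in 3 of 12 in TGF-β (0.0125, without replicate 1 of siRNA TGF-β), and the Pappa2 call in 9 of 12 (0.0404, without replicate 3 of siRNA vehicle), but none of the Stc1, Stc2 and Adam9 calls. With transcript length in the fit the Htra1 call in vehicle was also lost (adjusted p = 0.0104).

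Among 33 genes of the receptor adaptors and of PI3-kinase, Akt and mTOR, 32 were tested (Irs4 was not). With TGF-β, 4 passed as higher and 3 as lower in scramble cells, and 3 and 0 in siRNA cells. With the siRNA, 2 and 5 passed in vehicle, and 2 and 3 in TGF-β. The median log2 changes were small, at -0.0397, -0.0188, -0.134 and -0.0685. With the replicate block the counts were 6 and 4, 6 and 1, 2 and 10, and 2 and 9. Pik3r1, which encodes the regulatory subunit that docks on IRS1, fell with the siRNA by 0.75 (adjusted p = 0.00659) and 0.77 (adjusted p = 0.00565). Pik3r3, another regulatory subunit gene, rose with TGF-β by 0.58 (adjusted p = 0.00361) and 1.02 (adjusted p = 0.000155) and fell with the siRNA in vehicle by 0.89 (adjusted p = 0.000175). Rps6kb1, the S6 kinase gene downstream of mTOR, fell with the siRNA by 0.66 (adjusted p = 0.000383) and 0.63 (adjusted p = 0.000495), and Sos1, which links the receptors to Ras, by 0.46 (adjusted p = 0.000157) and 0.48 (adjusted p = 0.000114). Rheb, the activator of mTOR complex 1, rose with TGF-β by 0.60 (adjusted p = 0.000613) and 0.42 (adjusted p = 0.00502), and Akt1 rose by 0.27 (adjusted p = 0.00859) and 0.34 (adjusted p = 0.00284). Pik3cb, a catalytic subunit gene, rose with TGF-β in scramble cells by 1.31 (adjusted p = 0.00962). In siRNA cells its rise did not pass by edgeR without the block. It passed there with the block (1.14, adjusted p = 1.94e-05) and by DESeq2 (1.20, adjusted p = 0.00103). Foxo4 changed by -0.55 with TGF-β in scramble cells (adjusted p = 0.00343) and by 0.50 with the siRNA in TGF-β (adjusted p = 0.00405). Leaving out 1 library cost the Pik3cb call in 10 of 12 fits (highest adjusted p = 0.0441, without replicate 1 of scramble vehicle), the Pik3r1 calls in 7 and 4 (0.0252 and 0.026), the Pik3r3 call in scramble cells in 3 (0.0183), both Foxo4 calls in 3 each (0.0169 and 0.0161), the Akt1 call in scramble cells in 10 (0.0343), and the Rheb and Akt1 calls in siRNA cells in 3 each (0.0253 and 0.0161). The Rps6kb1 and Sos1 calls were lost in none. With transcript length in the fit, both Pik3r1 calls (adjusted p = 0.0262 and 0.0189) and the Pik3r3 (0.0154) and Akt1 (0.0757) calls in scramble cells were lost. Without both siRNA libraries of replicate 2, the calls lost were those of Pik3r1 in vehicle (0.0124), Foxo4 with the siRNA (0.0209), Pik3cb (0.0124), Rheb in siRNA cells (0.0358) and Akt1 in scramble (0.0162) and siRNA cells (0.0308).

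Genes that FOXO factors activate formed a list of their own. Of 10 tested, 0 passed as higher with TGF-β and 4 as lower in scramble cells, and 0 and 3 in siRNA cells, with Insr itself counted among them in both. The median log2 change of the 10 was -0.444 and -0.0203. With the block 0 passed as higher and 5 as lower in scramble cells, and 1 and 3 in siRNA cells. The gene added as higher was Fbxo32, an atrophy-linked ubiquitin ligase gene (0.88, adjusted p = 4.13e-05), which DESeq2 also called (adjusted p = 0.00107). Sesn1, a stress-response gene, fell by 1.04 (adjusted p = 0.00017) and 1.21 (adjusted p = 5.36e-05), and Cdkn1b, a cell cycle inhibitor gene, fell by 0.49 (adjusted p = 0.00196) and 0.48 (adjusted p = 0.00246). For the siRNA, 1 passed as higher and 3 as lower in vehicle, and 2 and 2 in TGF-β, where the block gave 4 and 3 (and 2 and 4 in vehicle). Sesn3 fell by 1.74 in vehicle (adjusted p = 9.5e-06) and by 1.18 in TGF-β (adjusted p = 0.000104). Pik3ip1, which encodes an inhibitor of PI3-kinase, fell by 2.07 in vehicle (adjusted p = 0.00082). Ccng2 went both ways, lower with the siRNA in vehicle by 0.30 (adjusted p = 0.0073) and higher in TGF-β by 0.41 (adjusted p = 0.0013). With the block the difference between the TGF-β changes passed for Ccng2 (0.71, adjusted p = 0.00447) and for Fbxo32 (1.05, adjusted p = 0.00467). The block called 0.655% of all genes for this difference. Without the block neither gene passed by edgeR. DESeq2 called Ccng2 (0.70, adjusted p = 1.47e-05) but not Fbxo32, beside 1.33% of all genes. Bcl6 changed by -0.35 with the siRNA in TGF-β (adjusted p = 0.00949). Leaving out 1 library cost the Bcl6 call in 10 of 12 fits (highest adjusted p = 0.0421, without replicate 1 of siRNA TGF-β), the Ccng2 call in vehicle in 8 (0.0297, without replicate 1 of siRNA vehicle) and the Cdkn1b calls in 1 and 4 (0.0101 and 0.012). The Ccng2 call in vehicle was also lost with transcript length in the fit (0.0122) and without both siRNA libraries of replicate 2 (0.0265).

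In the growth hormone receptor pathway, which drives Igf1 in the liver, 1 of 7 genes passed with TGF-β in scramble cells and 1 with the siRNA in TGF-β, and both were Ghr. The receptor gene had 6657, 5988 and 7993 normalized counts in scramble vehicle and 4188, 3638 and 4276 in scramble TGF-β. It had 6792, 5935 and 7470 in siRNA vehicle and 7756, 5859 and 6160 in siRNA TGF-β. Scramble TGF-β was again the group below the rest, as for Igf1r, with a log2 change of -0.77 (adjusted p = 0.00163) and a siRNA difference of 0.71 in TGF-β (adjusted p = 0.00182). The difference between its TGF-β changes was 0.74 (unadjusted p = 0.00258, adjusted p = 0.134). The median log2 change of the 7 genes was -0.0832 with TGF-β in scramble cells. The siRNA call of Ghr was lost without replicate 2 of scramble TGF-β (adjusted p = 0.0105). With the block Stat5b, a transcription factor gene of the pathway, also changed, by -0.31 with TGF-β in siRNA cells (adjusted p = 0.00367) and by 0.34 with the siRNA in vehicle (adjusted p = 0.00169).

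The 3 genes of the IGF2 mRNA-binding proteins, which bind and stabilise transcripts including that of Igf2, moved in different directions. With the siRNA in vehicle, 0 passed as higher and 2 as lower, and in TGF-β 1 and 2. Igf2bp1 had 138, 120 and 120 normalized counts in scramble vehicle, 188, 245 and 302 in scramble TGF-β, 22.6, 38.0 and 36.4 in siRNA vehicle and 92.7, 104 and 114 in siRNA TGF-β. With the siRNA in vehicle it fell by 1.95 (adjusted p = 6.47e-05), and TGF-β libraries were above the matching vehicle libraries. Igf2bp2 fell with the siRNA by 1.44 in vehicle (adjusted p = 0.00116) and by 1.11 in TGF-β (adjusted p = 0.006), whereas Igf2bp3 rose by 0.78 in TGF-β (adjusted p = 0.00792). With TGF-β, 1 and 0 passed in scramble cells and 2 and 0 in siRNA cells; the block added Igf2bp2 as lower in both (-0.91, adjusted p = 0.000146, and -0.59, adjusted p = 0.00332). With transcript length in the fit, the Igf2bp1 rise in scramble cells (adjusted p = 0.377), its siRNA call in TGF-β (0.0811) and the Igf2bp3 siRNA call (0.0539) were lost. Without both siRNA libraries of replicate 2, the Igf2bp1 rise in scramble cells (0.0101) and the Igf2bp3 calls with the siRNA (0.0147) and with TGF-β in siRNA cells (0.036) were lost. Leaving out 1 library cost the Igf2bp1 rise in scramble cells its call in 5 of 12 fits (highest adjusted p = 0.0233), the Igf2bp2 call in TGF-β in 4 (0.0288) and the Igf2bp3 call in 9 (0.0344), but not the siRNA calls of Igf2bp1 and Igf2bp2 in vehicle.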

How the data were processed

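RNA sequencing (paired-end, ribosomal RNA depleted) of 12 libraries was analysed, 3 replicates in each of 4 groups taken from the labels. Per the labels and methods, the authors quantified transcripts with Salmon against mm10 and deposited, for each transcript, estimated counts (NumReads) and TPM. Here the deposited estimated counts were summed per gene through the GENCODE M21 annotation of GRCm38 by transcript identifier (115973 of 117135 transcripts, 99.54% to 99.6% of reads) and rounded. TPM was used for levels between genes and transcripts, for sums and markers compared between libraries, and for Igf1 beside the macrophage markers. It entered no test. Genes were kept at a total of 10 or more counts over all libraries. edgeR 4.0.16 (R 4.3.3) fitted all 4 groups together with TMM scaling and quasi-likelihood F tests, and the threshold was a Benjamini-Hochberg adjusted p of 0.01 over all genes. Normalized counts are TMM-scaled counts brought to the mean library total of 26.97 M reads. Standard errors were derived from the F statistics. DESeq2 1.42.0, RLE scaling, other filters, an offset for transcript length, equal depth, a replicate block, leaving out each library and, chosen after seeing the data, leaving out both siRNA libraries of replicate 2 were the alternatives. The fits were tested on simulated data.

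The replicate numbers come from the sample titles. Deviations from the group means over 11459 genes correlated between same-numbered libraries at 0.112 to 0.612, and between others at -0.569 to 0.29. These ranges overlap: replicate 1 of scramble vehicle correlated with siRNA vehicle at 0.112 for replicate 1 and at 0.197 for replicate 2. Deviations from a group mean cancel over its replicates, so positive same-number values force the values of the others down. The low range of the others is therefore no separate evidence of pairing. The numbers were still taken to pair the samples, a choice made on these same data. The methods describe replicates as separate animals or isolations. Replicates of a group differed beyond sampling noise (chi-square divided by its degrees of freedom, 9.41 to 69.3).

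All 10 members were named. From each other list, the called genes with the largest changes in each comparison were named, up to 4, those with a mean normalized count of at least 100 first, together with the 3 genes closest in course to each called member. H1f0, Acta2 and Postn served as checks; Irs2, Pappa, Kazald1, Fbxo32, Stat5b and the macrophage genes were named after their values were seen. The members and lists were chosen with earlier results of these data known, so they are no independent evidence.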

Additional observations from a re-analysis of the deposited data

How the results depend on the processing

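All called changes of the members kept their direction in every alternative that was run. The count of members called for the interaction was 1 by DESeq2 against 0, beside 1.33% and 0.0444% of all genes. For TGF-β in siRNA cells it was 8 with the replicate block against 4, beside 26.8% and 15.7% of all genes. For TGF-β in scramble cells it was 3 with the offset for transcript length against 5, beside 12.7% and 18.4% of all genes. Leaving out single libraries gave 2 to 5 members for TGF-β in siRNA cells, while the calls over all genes ran from 1589 to 2884. For the siRNA in TGF-β it gave 2 to 4 members, with 3231 to 4468 calls over all genes. Without both siRNA libraries of replicate 2 the counts for the 5 pairs of groups were 4, 4, 3, 3 and 4. The shares over all genes were 15.6%, 6.71%, 19.2%, 18.7% and 30.2% in the same order. The block changed no member's call to a lost one, and the calls it added are beside the members.

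The signs that turned all belong to changes that were not called. For Igfbp5 with TGF-β in siRNA cells, the value was 0.16 with the replicate block and 1.20 without both siRNA libraries of replicate 2. Without those libraries the siRNA value in vehicle was -0.0075 for Igfbp6 and 0.013 for Igfbp7. Over the fits that left out single libraries, the TGF-β change in scramble cells ran from -0.026 to 0.12 for Irs1, from -0.65 to 0.082 for Igfbp5 and from -0.21 to 0.043 for Igfbp7, and that in siRNA cells from -0.76 to 1.73 for Igfbp5. The siRNA change in vehicle ran from -0.14 to 0.55 for Igfbp2, from -0.15 to 0.27 for Igfbp6 and from -0.23 to 0.047 for Igfbp7, and that in TGF-β from -0.10 to 0.40 for Igfbp6. Igf1r between siRNA TGF-β and scramble vehicle ran from -0.0016 to 0.18. The interaction ran from -0.016 to 0.075 for Insr, -0.13 to 0.57 for Igfbp2, -0.40 to 2.09 for Igfbp5 and -0.17 to 0.33 for Igfbp6. The cause was not tested. The groups of 3 limit the precision: with 1 library left out, its group rests on 2.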
